A study of Mus musculus with 12 samples.

Results

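The 10 genes described here form the core loop of the circadian clock and its direct outputs: Arntl (also called Bmal1), Npas2, Per1, Per2, Per3, Cry1, Nr1d1, Nr1d2, Dbp and Tef. They were taken as a list of symbols, found by matching gene identifiers to symbols, and all 10 were among the 54232 genes counted in every library and among the 18618 genes that passed the filter on low counts. The RNA came from 12 back wounds of male mice homozygous for the db mutation of Lepr, the leptin receptor gene (obese and diabetic), on the C57BLKS/J strain. All mice carried this genotype and were 12 weeks old when a full-thickness punch of 6 mm was made. All wounds were taken on day 10. The sample labels give an age of 12.5 weeks, which is less than 12 weeks and 10 days, and what it refers to is not known here. The 5 TD wounds were covered by Tegaderm, a clear adhesive film dressing, alone. The 4 Strain wounds were under a patch designed to stretch the tissue by about 30%, and the 3 No Strain wounds wore a patch that imposed none. The sources used here do not say if 1 mouse gave more than 1 wound, so p-values measure only the spread between these wounds. The hour of harvest and the light schedule are likewise not given in the sources used here.

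In the mammalian clock, the proteins ARNTL and CLOCK, or its relative NPAS2, bind E-box sequences and switch on the Per and Cry genes, whose products then shut the pair down. The same pair drives Nr1d1 and Nr1d2, which encode the repressors REV-ERB alpha and beta, and these act on ROR elements of Arntl and Npas2, so that Arntl transcripts peak at about the opposite time of day from those of Nr1d1, Dbp and Per3. DBP and TEF are transcription factors of the PAR bZIP family that carry clock time to other genes through D-box sequences. Keratinocytes, fibroblasts, adipocytes and muscle fibers each run such a clock, and a bulk wound sample sums over all of them. The comparison of the groups addresses whether the wounds could have been taken at different phases of this cycle.

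Total counts ran from 20354677 to 25059371 per library, and the least abundant value of any of the 10 genes was 120 counts, for Dbp in Strain replicate 2. Levels are given as CPM, the usual per-million scaling of counts by the TMM-adjusted library total, on which 3 counts were worth 0.117 to 0.149 CPM. Sample titles carried the numbers 1 to 6 for TD and 7 to 15 for the wounds under a patch. What these numbers mark is not stated, and any effect of that order cannot be told apart from that of the patch. Markers of the labelled tissue were present: the summed level of 6 basal keratinocyte genes was 4405 to 10980 CPM and that of 6 fibroblast genes 41970 to 73050 CPM over the 12 libraries.

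The upstream sequences below show where the clock's binding letters stand in 4 of the genes, 3 that fell in at least 1 patch group (Tef, Per3 and Nr1d1) and 1 that did not pass the test (Per1), beside a short stretch of Arntl. They are RefSeq sequences of GRCm38.p6, read 5′ to 3′ on the strand of the gene, and the first 4 end at or just before an annotated start. Capitals mark the E-box CACGTG in Tef (chr15:81811164-81811413, plus strand) and Per1 (chr11:69098699-69098947, plus strand), the E-box variant CACGTT, which reads AACGTG on the other strand, in Nr1d1 (chr11:98775378-98775627, minus strand), and the D-box TTATGTAA in Per3 (chr4:151044666-151044915, minus strand). In Arntl (chr7:113207521-113207550, plus strand, within the first exon of the GENCODE M21 annotation) they mark the ROR element TAGGTCA.
Tef: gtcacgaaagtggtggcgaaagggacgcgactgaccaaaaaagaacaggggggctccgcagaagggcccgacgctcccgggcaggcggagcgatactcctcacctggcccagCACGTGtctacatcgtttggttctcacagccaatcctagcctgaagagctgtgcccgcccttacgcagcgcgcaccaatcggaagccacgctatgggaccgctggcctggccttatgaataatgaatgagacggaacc
Per3: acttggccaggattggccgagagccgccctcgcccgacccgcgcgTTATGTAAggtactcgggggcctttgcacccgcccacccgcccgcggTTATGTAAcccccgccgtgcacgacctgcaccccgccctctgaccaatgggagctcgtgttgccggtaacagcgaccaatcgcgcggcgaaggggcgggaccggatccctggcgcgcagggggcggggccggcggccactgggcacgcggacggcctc
Nr1d1: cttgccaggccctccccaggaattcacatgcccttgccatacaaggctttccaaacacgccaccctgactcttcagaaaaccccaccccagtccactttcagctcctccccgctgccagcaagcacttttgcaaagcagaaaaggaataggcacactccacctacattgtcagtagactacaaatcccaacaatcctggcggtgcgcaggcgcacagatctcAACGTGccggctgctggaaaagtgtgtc
Per1: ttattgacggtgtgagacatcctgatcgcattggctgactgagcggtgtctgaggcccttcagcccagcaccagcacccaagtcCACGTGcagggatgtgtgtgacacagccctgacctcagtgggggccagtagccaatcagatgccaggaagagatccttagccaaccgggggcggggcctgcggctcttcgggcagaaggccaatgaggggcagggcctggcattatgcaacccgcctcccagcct
Arntl: catttagggaaggcagaaagTAGGTCAggg

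RefSeq promoter windows, from 250 bases before to 50 after a start, were at hand for 9 of the 10 genes, 12 windows in all, with none matched for Per2. Each motif was searched on both strands. CACGTG stood in 4 of the 12 windows, belonging to Cry1, Per1 and Tef, against 7.15% of all 32851 promoter windows. CACGTT stood in 2 of the 12, belonging to Cry1 and Nr1d1, against 4.68%. A D-box (TTATGTAA or TTACGTAA) stood in 1 of the 12, that of Per3, at 2 places 205 and 158 bases before the start, against 1.06% of all windows. A ROR element (AAGGTCA or TAGGTCA) stood in 1 of the 12, belonging to Arntl, against 7.16%. The letters of the cyclic AMP element TGACGTCA, which stood in 1.79% of all windows, were in none of the 12. These are matches of letters and no measure of binding.

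Dbp and Tef, the output factors, were lower under both patches than under the film dressing. Dbp (ENSMUSG00000059824, chr7:45705088-45710203, GRCm38, plus strand) had 19.0, 18.7, 25.8, 17.5 and 19.1 CPM in TD replicates 1 to 5. It had 13.4, 5.40, 13.6 and 10.3 CPM in Strain replicates 1 to 4 and 6.71, 9.95 and 7.81 CPM in No Strain replicates 1 to 3. All 7 patch libraries lay below all 5 TD libraries, and the lowest was Strain replicate 2. Relative to TD, Dbp fell by 0.91 on the log2 scale under Strain (standard error 0.241, edgeR adjusted p = 0.0333). Under No Strain it fell by 1.29 (standard error 0.272, edgeR adjusted p = 0.0105). The call for Strain was lost without TD replicate 1, 2, 3, 4 or 5 or Strain replicate 4, each in turn, with edgeR adjusted p no higher than 0.0728, and the direction held in each.

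Tef (ENSMUSG00000022389, chr15:81802421-81826863, plus strand) had 102, 95.0, 131, 108 and 89.3 CPM in TD. The Strain libraries had 66.7, 44.0, 77.9 and 52.0 CPM and the No Strain libraries 57.1, 58.6 and 58.4 CPM. Again no patch library reached the lowest TD library, and the No Strain values lay close together (SD 0.802 CPM, n = 3). Tef fell by 0.80 on the log2 scale under Strain (standard error 0.158, edgeR adjusted p = 0.0122) and by 0.86 under No Strain (standard error 0.174, edgeR adjusted p = 0.00939). Both calls held without each of the 12 libraries in turn. A lower level in a bulk sample can mean fewer cells of a type or less RNA per cell, and these cannot be told apart here.

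**Figure D1:**
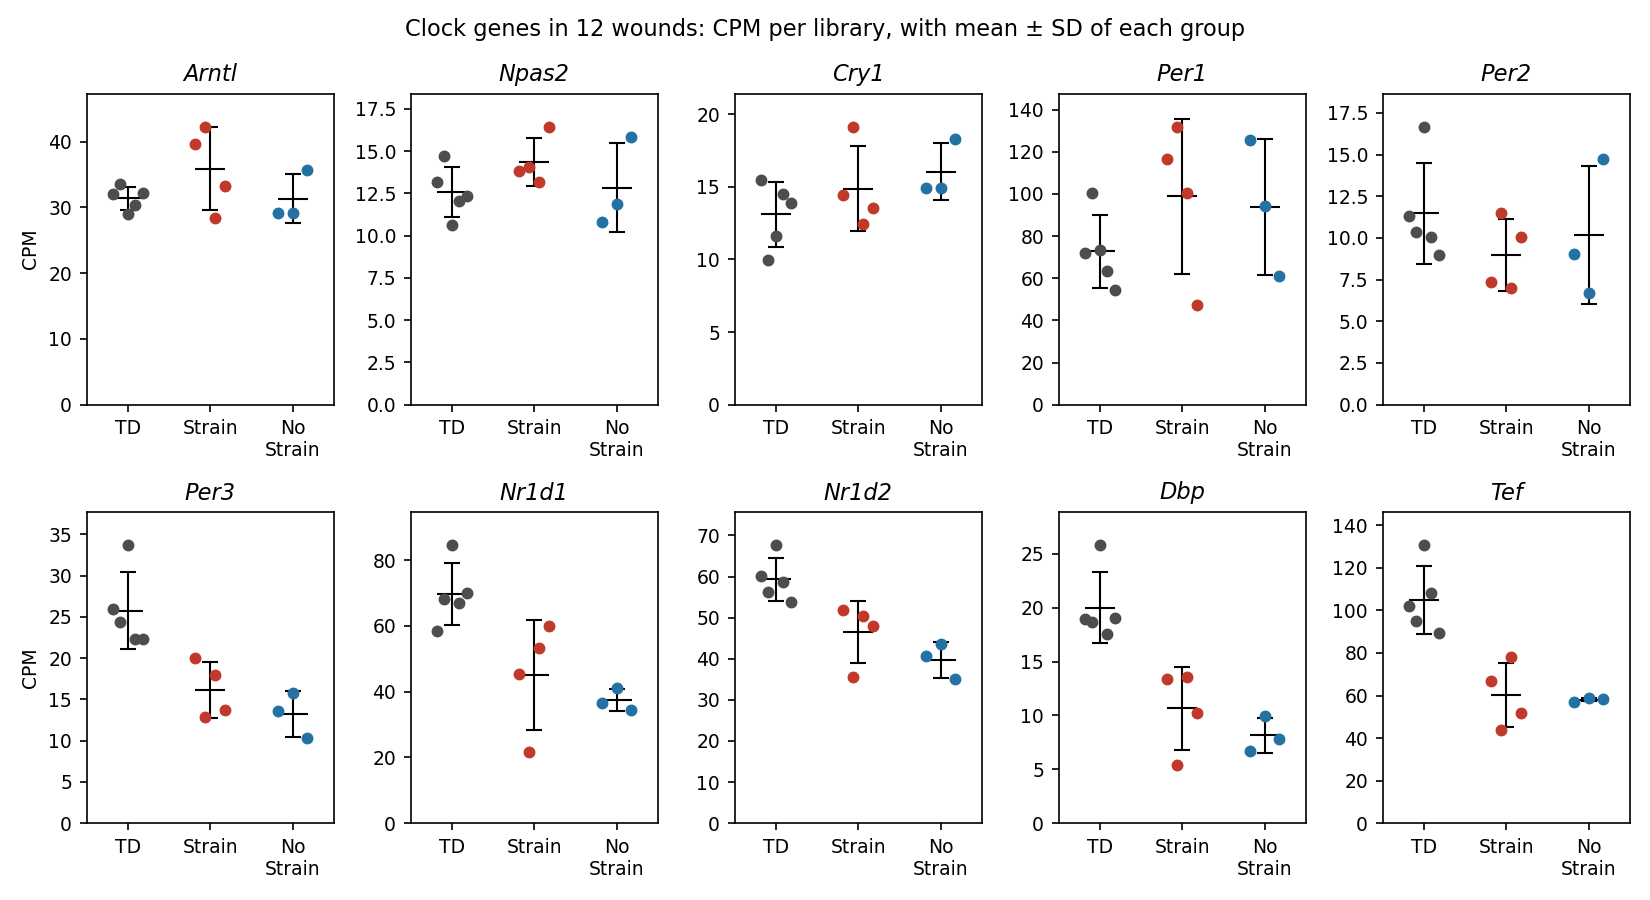
CPM of the 10 clock genes (vertical axes, linear from 0) in each library of the 3 groups, as points, with the mean and SD of each group as bars. Per3, Nr1d2, Dbp and Tef show every patch library below every TD library, while Arntl, Npas2, Cry1, Per1 and Per2 overlap between groups.

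Of the 3 Per genes, whose products form the repressing arm of the loop, Per3 passed the test in both patch groups and Per1 and Per2 in neither. Per3 (ENSMUSG00000028957, chr4:151003652-151044665, minus strand) had 26.0, 24.4, 33.7, 22.4 and 22.4 CPM in TD. It had 20.1, 12.9, 17.9 and 13.8 CPM in Strain and 13.6, 15.8 and 10.3 CPM in No Strain. The patch libraries all lay below the TD libraries. Per3 fell by 0.67 on the log2 scale under Strain (standard error 0.175, edgeR adjusted p = 0.0310) and by 0.96 under No Strain (standard error 0.195, edgeR adjusted p = 0.00911). The Strain call was lost without TD replicate 1 or 3 or Strain replicate 2 or 4, with edgeR adjusted p up to 0.0892.

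Per1 (ENSMUSG00000020893, chr11:69095217-69109960, plus strand), which responds to glucocorticoids and acute stimuli besides the clock, varied widely within each group. Its level was 71.8, 100.4, 73.4, 63.3 and 54.5 CPM in TD, 116, 132, 100.4 and 47.3 CPM in Strain, and 126, 94.3 and 61.2 CPM in No Strain. The Strain group held both the highest and the lowest of the 12 values. Per1 had a log2 fold change of 0.45 for Strain (edgeR adjusted p = 0.336) and of 0.37 for No Strain (edgeR adjusted p = 0.450), with standard errors of 0.290 and 0.314. Per2 (ENSMUSG00000055866, chr1:91415982-91459324, minus strand) spanned 8.99 to 16.7 CPM in TD, 6.97 to 11.5 CPM in Strain and 6.69 to 14.7 CPM in No Strain, all overlapping. Against TD, Per2 differed by -0.35 (log2, standard error 0.254, edgeR adjusted p = 0.383) under Strain and by -0.18 (standard error 0.276, edgeR adjusted p = 0.696) under No Strain.

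Nr1d1 and Nr1d2, the repressors of the second loop, were lower in the No Strain group. Nr1d1 (ENSMUSG00000020889, chr11:98767932-98775333, minus strand) had 58.3, 68.0, 84.5, 67.1 and 69.9 CPM in TD and 36.5, 41.1 and 34.5 CPM in No Strain. In Strain it had 45.5, 21.7, 53.2 and 60.0 CPM, so that replicate 4 reached the range of TD. It fell by 0.89 on the log2 scale under No Strain (standard error 0.257, edgeR adjusted p = 0.0352). That call was lost without any 1 of TD replicates 2, 3, 4 and 5 or of the 3 No Strain libraries, with edgeR adjusted p up to 0.116. These were 7 of the 12 fits that each left out 1 library. Of the libraries compared, leaving out TD replicate 1 alone kept the call. The other fits that kept it left out a Strain library, which is not part of this comparison. Under Strain, Nr1d1 differed from TD by -0.63 (log2, standard error 0.231, edgeR adjusted p = 0.0970).

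Nr1d2 (ENSMUSG00000021775, chr14:18204054-18239127, minus strand) had 60.0, 56.3, 67.6, 58.8 and 53.8 CPM in TD. It had 52.0, 35.5, 50.4 and 48.1 CPM in Strain and 40.6, 43.7 and 35.0 CPM in No Strain, all below TD. Its fold change of -0.58 (log2, standard error 0.125) for No Strain passed the test (edgeR adjusted p = 0.0117), though not without No Strain replicate 3 (edgeR adjusted p = 0.0550). That of -0.35 (standard error 0.113) for Strain did not pass (edgeR adjusted p = 0.0621).

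Among the genes of the opposite phase, none passed the test. Arntl (ENSMUSG00000055116, chr7:113207465-113314126, plus strand) had 32.0, 33.5, 29.1, 30.4 and 32.1 CPM in TD. It had 39.7, 42.3, 28.3 and 33.3 CPM in Strain and 29.2, 29.2 and 35.6 CPM in No Strain. Strain replicates 1 and 2 and No Strain replicate 3 stood above all TD libraries, and Strain replicate 3 below them. Arntl differed from TD by 0.19 (log2, standard error 0.111, edgeR adjusted p = 0.276) under Strain and by -0.0037 (standard error 0.122, edgeR adjusted p = 0.989) under No Strain. Npas2 (ENSMUSG00000026077, chr1:39193731-39363236, plus strand) spanned 10.6 to 14.7 CPM in TD, 13.2 to 16.4 CPM in Strain and 10.8 to 15.8 CPM in No Strain. Its log2 fold changes were 0.19 and 0.03, with edgeR adjusted p of 0.346 and 0.913. Cry1 (ENSMUSG00000020038, chr10:85131700-85185064, minus strand), a repressor whose transcript peaks late in the cycle, spanned 9.98 to 15.5 CPM in TD, 12.5 to 19.1 CPM in Strain and 14.9 to 18.3 CPM in No Strain. The log2 fold changes of Cry1 were 0.18 for Strain (edgeR adjusted p = 0.462) and 0.29 for No Strain (edgeR adjusted p = 0.248).

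Counted together, 3 of the 10 genes (Per3, Dbp and Tef) passed for Strain relative to TD, where 12.6% of all genes tested did. The 3 were lower, as were 6.41% of all genes, and 0 of 10 were higher, as were 6.20%. With an unadjusted p under 0.05 there were 5 of 10, beside 29.5% of all genes. In the No Strain group 5 of the 10 passed (Per3, Dbp, Tef, Nr1d1 and Nr1d2), where 17.8% of all genes did. These 5 were lower, as were 8.40% of all genes, and 0 were higher, as were 9.35%, and 5 of 10 had an unadjusted p under 0.05, beside 33.5%. Every Strain library lay below every TD library for 4 of the 10 genes (7.15% of all genes) and above for 0 (7.47%). Every No Strain library lay below for 5 of 10 (12.5% of all genes) and above for 0 (14.3%). The median log2 fold change of the 10 genes was -0.35 for Strain and -0.38 for No Strain, beside 0.02 and 0.00 over all genes. Both comparisons use the same 5 TD libraries. With the letter L or R of the sample title as a covariate, Tef alone of the 10 passed for Strain (edgeR adjusted p = 0.0448), and Nr1d1 did not pass for No Strain (edgeR adjusted p = 0.0962). The letter was L in TD replicate 1, Strain replicates 1, 2 and 4 and No Strain replicates 2 and 3, and R in the others. Most TD libraries were thus R and most patch libraries L, so letter and patch cannot be fully told apart.

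The direct comparison of Strain with No Strain called 0 of the 10 genes in edgeR, and 0.00% of all genes. None of the 10 had an unadjusted p under 0.05, against 5.61% of all genes, and DESeq2 and limma-voom also called 0 of the 10. The largest fold change was that of Dbp, 0.39 on the log2 scale (standard error 0.277, edgeR adjusted p = 0.896), and the smallest that of Tef, 0.05 (standard error 0.178, edgeR adjusted p = 0.991). Strain and No Strain overlapped for all 10 genes, while over all genes 2.77% had every Strain library below every No Strain library and 2.85% had every one above.

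**Figure D2:**
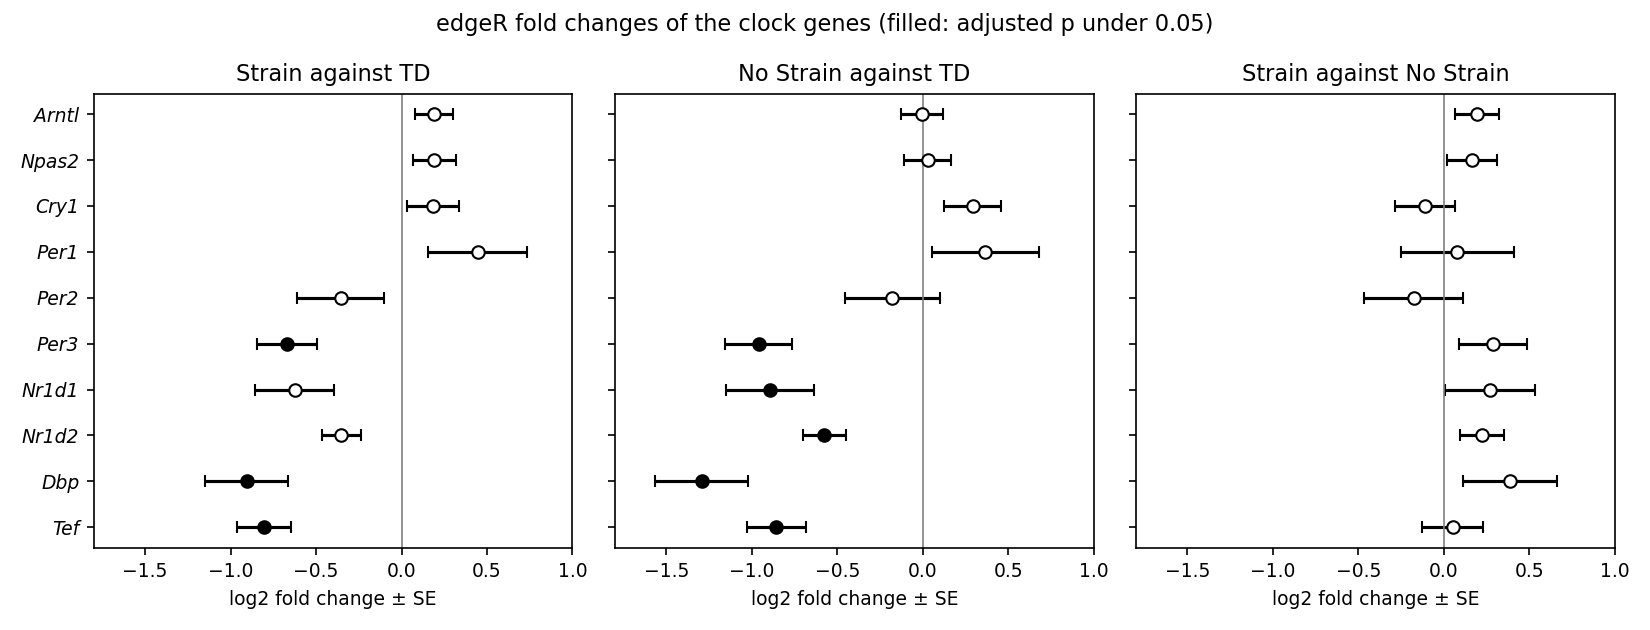
log2 fold changes (horizontal axis) of the 10 clock genes in the 3 comparisons, as points with the standard error as bars; filled points had an edgeR adjusted p under 0.05. Against TD the filled points, 3 for Strain and 5 for No Strain, lie left of 0 among Per3, Nr1d1, Nr1d2, Dbp and Tef, and none is filled for Strain against No Strain.

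Ratios of opposite-phase genes within a library do not depend on how libraries are scaled. The log2 ratio of Arntl to Dbp was 0.76, 0.85, 0.17, 0.79 and 0.75 in TD. It was 1.56, 2.97, 1.06 and 1.70 in Strain and 2.12, 1.55 and 2.19 in No Strain. Every patch library thus lay above every TD library. The TD mean was 0.66 ± 0.277 (SD, n = 5), the Strain mean 1.82 ± 0.811 (SD, n = 4) and the No Strain mean 1.96 ± 0.349 (SD, n = 3). The log2 ratio of Npas2 to Dbp averaged -0.66 ± 0.359 (SD, n = 5), 0.52 ± 0.662 (SD, n = 4) and 0.65 ± 0.384 (SD, n = 3) in the same order, and that of Arntl to Per3 0.30 ± 0.299, 1.16 ± 0.446 and 1.26 ± 0.475. Neither of these overlapped between TD and either patch group. The ratio of Arntl to Nr1d1 averaged -1.14 ± 0.250 in TD, -0.25 ± 0.867 in Strain and -0.26 ± 0.276 in No Strain, and Strain replicate 3, at -0.91, lay within the TD range of -1.54 to -0.87. The mean ratio of Arntl to Dbp differed from that of TD by 1.16 in Strain and 1.29 in No Strain, beside log2 fold changes of Arntl of 0.19 and -0.0037. These ratios are descriptions, without a test. They share Arntl and Dbp between them, and Dbp, Per3 and Nr1d1 were themselves lower under a patch. The ratios are thus not results separate from those genes. Ratios to Per1 and Per2, which did not pass, were not computed.

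Single libraries stood at opposite ends for some opposite-phase genes. Of the 12 libraries, Strain replicate 2 had the highest Arntl and Cry1 and the lowest Dbp, Tef and Nr1d1. The Per genes of that library went different ways. Its Per1 (132 CPM) was the highest of the 12. Within Strain its Per2 (11.5 CPM) was the highest and its Per3 (12.9 CPM) the lowest. TD replicate 3 had the highest Dbp, Tef, Per2, Per3, Nr1d1 and Nr1d2 and the lowest Npas2. No Strain replicate 3 had the lowest Per3 and Nr1d2. Within Strain, replicates 1 and 2, with title numbers 7 and 10, had more Arntl than replicates 3 and 4, with title numbers 14 and 15. Without Strain replicate 2 the log2 fold changes for Strain against TD were -0.69 for Dbp and -0.69 for Tef, and both passed (edgeR adjusted p = 0.0433 and 0.0280).

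**Figure D3:**
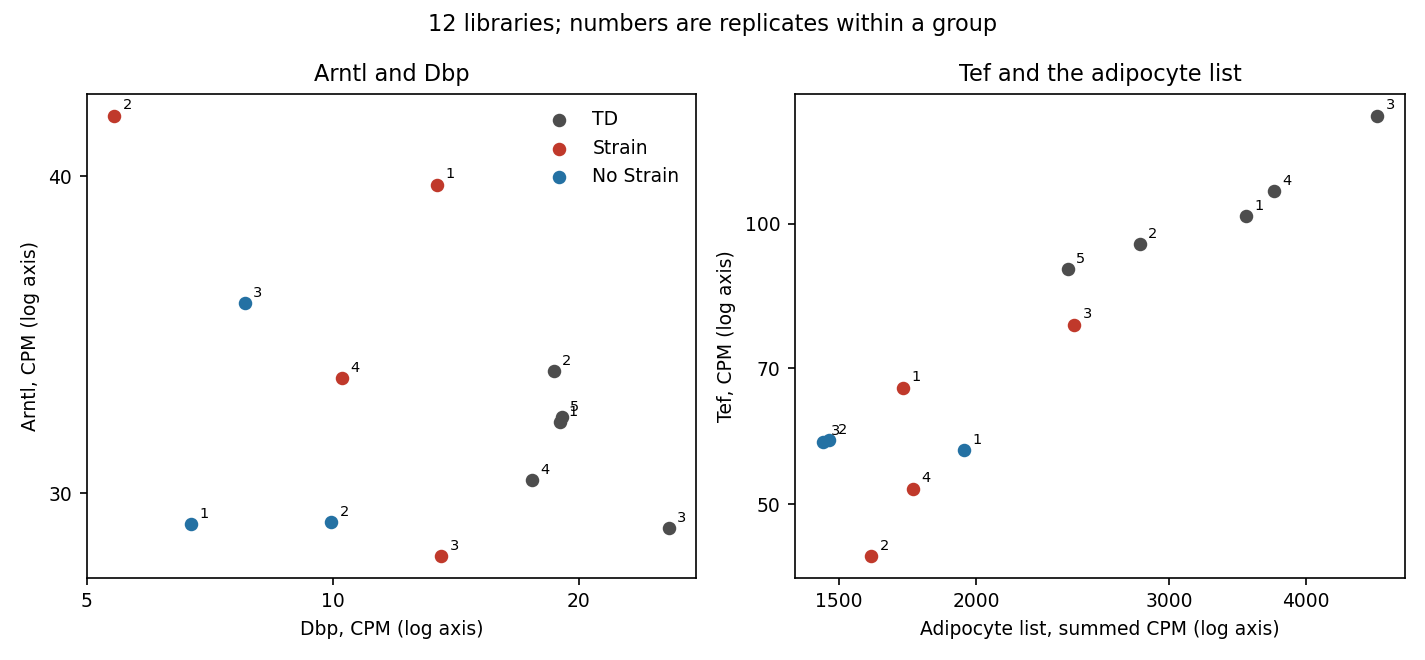
Left, Arntl (vertical) against Dbp (horizontal), both as CPM; right, Tef as CPM (vertical) against the summed CPM (horizontal) of 10 adipocyte genes; log axes, 1 point for each of the 12 libraries, colored by group and numbered by replicate. Strain replicate 2 is at the upper left and TD replicate 3 at the lower right of the plot of Arntl and Dbp, and TD replicate 3 is highest on both axes of the plot of Tef.

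The spread within groups differed between the genes. The pooled within-group SD of log2 CPM was lowest for Arntl, 0.177, and Nr1d2, 0.184, at the 40.4 and 41.7 percentiles of all genes tested. The SD was highest for Per1, 0.505, at the 83.6 percentile, and those of Dbp, Nr1d1 and Per2 lay between 0.404 and 0.407. The median was 0.267 for the 10 genes and 0.228 for all genes. Per kilobase of exon, mean TD levels ran in the order Nr1d1 (22.6 CPM per kb), Tef (13.4), Per1 (12.9), Nr1d2 (10.96), Dbp (6.68), Arntl (4.18), Cry1 (3.92), Per3 (2.68), Npas2 (2.63) and Per2 (1.96). Tef and Per1, Per1 and Nr1d2, Arntl and Cry1, and Per3 and Npas2 are neighbours in this order that differ by less than their spread. Exons of Dbp share 539 of their 2993 bases with Sphk2, and those of Nr1d1 263 of 3077 with Thra, both on the opposite strand, where reads of an unstranded count cannot be told apart. Sphk2 had a log2 fold change of -0.12 for Strain (edgeR adjusted p = 0.412) and -0.11 for No Strain (edgeR adjusted p = 0.465). Thra had log2 fold changes of -0.30 (edgeR adjusted p = 0.0983) and -0.39 (edgeR adjusted p = 0.0476).

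Of 14 other genes of the clock mechanism, 1 fell and 0 rose under Strain, and 3 fell and 0 rose under No Strain, each relative to TD. Over all genes 6.41% fell and 6.20% rose for Strain, and 8.40% fell and 9.35% rose for No Strain. The same shares belong beside the edgeR counts of the lists that follow. Cry2, the second cryptochrome, passed in both: it spanned 37.5 to 54.1 CPM in TD, 28.9 to 31.6 CPM in Strain and 26.2 to 29.6 CPM in No Strain, with no overlap with TD. Cry2 fell by 0.51 (log2, standard error 0.0994, edgeR adjusted p = 0.0116) and by 0.64 (standard error 0.110, edgeR adjusted p = 0.00448). Btrc, which encodes a ubiquitin ligase subunit acting on PER proteins, changed by -0.23 in No Strain (edgeR adjusted p = 0.0363). Clock itself averaged 55.5 CPM in the TD group (SD 1.44, n = 5), 55.0 under Strain (SD 4.21, n = 4) and 51.2 under No Strain (SD 3.63, n = 3), with log2 fold changes of -0.01 (edgeR adjusted p = 0.922) and -0.12 (edgeR adjusted p = 0.258). The median log2 fold change of the 14 was -0.12 for Strain and -0.19 for No Strain.

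Of 8 other output genes, 1 rose and 1 fell for Strain, and 2 rose and 0 fell for No Strain. Nampt, the rate-limiting enzyme of NAD salvage, rose by 0.81 (log2, edgeR adjusted p = 0.0295) and 0.93 (edgeR adjusted p = 0.0174), from 81.5 ± 9.09 CPM (SD, n = 5) to 142.5 ± 55.1 (SD, n = 4) and 155 ± 26.0 (SD, n = 3). Nfil3, a repressor that competes with DBP and TEF for D-box sequences, rose by 0.76 in No Strain (edgeR adjusted p = 0.0272), and had a log2 fold change of 0.38 in Strain (edgeR adjusted p = 0.204). Usp2, which encodes a deubiquitinase, fell by 0.67 in Strain (edgeR adjusted p = 0.0205) and had a log2 fold change of -0.41 in No Strain (edgeR adjusted p = 0.114). Hlf, the third PAR bZIP factor beside Dbp and Tef, had log2 fold changes of -0.90 (edgeR adjusted p = 0.0833) and -1.03 (edgeR adjusted p = 0.0643), so that it did not pass.

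Since Per1 answers to stress hormones and to acute stimuli, 2 further lists were read. Of 8 genes of the glucocorticoid response, 1 rose (Sgk1, by 0.86 in Strain and 0.74 in No Strain, edgeR adjusted p = 0.00533 and 0.00657) and 1 fell (Zbtb16, by 1.03 and 1.31, edgeR adjusted p = 0.0399 and 0.0205) in both comparisons. Fkbp5, a widely used target of the hormone receptor, had log2 fold changes of -0.06 (edgeR adjusted p = 0.832) and 0.14 (edgeR adjusted p = 0.566). Of 8 immediate early genes, which respond within minutes to stimuli, 0 passed for Strain against TD in edgeR, with 1 at an unadjusted p under 0.05, while DESeq2 called 1 and limma-voom 0. For No Strain against TD 2 rose, Fos by 0.86 (edgeR adjusted p = 0.0244) and Junb by 0.81 (edgeR adjusted p = 0.00305).

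Levels of marker genes of other cell types moved with the groups. The summed level of 10 adipocyte genes, all detected, was 2426 to 4645 CPM in TD, 1605 to 2458 CPM in Strain and 1449 to 1950 CPM in No Strain, and 6 of the 10 fell for Strain and 9 of 10 for No Strain. That of 10 skeletal muscle genes, all detected, was 5330 to 12620 CPM in TD, 2487 to 4927 CPM in Strain and 3664 to 8107 CPM in No Strain. In edgeR 6 and 1 of the 9 tested fell. DESeq2 called 8 and 4 muscle genes lower and limma-voom 6 and 3, for Strain and No Strain in that order. Neutrophil genes moved the other way: the sum of 8, all detected, was 500.2 to 1698 CPM in TD, 932.5 to 8834 in Strain and 2502 to 5327 in No Strain, and 7 and 6 of 8 rose. Sums of hair follicle genes (36.8 to 142 CPM in TD, 16.8 to 29.8 in Strain, 8.97 to 32.3 in No Strain) and of T cell genes (17.5 to 22.6, 26.6 to 66.5 and 34.8 to 60.6 CPM) did not overlap between TD and either patch group. Of 6 hair follicle genes 2 and 1 fell, and of 6 T cell genes 3 and 4 rose, for Strain and No Strain in that order. Of 6 endothelial genes 3 and 3 rose, of 6 genes of wound-activated keratinocytes 2 and 1 rose, and of 4 Schwann cell genes 0 and 2 fell. The 2 keratinocyte genes that rose for Strain were Krt6b and S100a8, and S100a8 is also counted among the neutrophil genes. Of 6 basal keratinocyte genes 1 and 2 fell, of 6 of the differentiated epidermis 0 and 1 fell, and of 6 macrophage and 6 fibroblast genes 0 passed in either comparison (edgeR, DESeq2 and limma-voom), with 1 and 2 macrophage and 1 and 1 fibroblast genes at an unadjusted p under 0.05 in edgeR. TD replicate 3, highest in 6 of the clock genes, was also highest of the 12 in the adipocyte and muscle sums and lowest in the neutrophil sum. Strain replicate 2, lowest in Dbp, Tef and Nr1d1, had the second lowest muscle sum, 3079 CPM, and a neutrophil sum of 6020 CPM, behind Strain replicate 1 alone. Strain replicate 1 had the lowest muscle sum, 2487 CPM, and the highest neutrophil sum, 8834 CPM. Its Dbp (13.4 CPM) and Tef (66.7 CPM) were above those of Strain replicates 2 and 4. Its Per3 (20.1 CPM) and Nr1d2 (52.0 CPM) were the highest of the patch libraries. The adipocyte sum was 1715 CPM in Strain replicate 1, 1605 CPM in Strain replicate 2 and 1753 CPM in Strain replicate 4. Within TD the order of Tef over the 5 libraries, replicates 3, 4, 1, 2 and 5 from the top, was that of the muscle and adipocyte sums. In Strain and in No Strain the order of Tef was that of neither sum. The orders of Per3, Nr1d1, Nr1d2 and Dbp within TD also differed from that of the sums.

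The fold changes were then refitted with the mean log2 CPM of a marker list as a covariate. With the skeletal muscle list, Dbp kept a log2 fold change of -0.91 for Strain and -1.29 for No Strain, with standard errors of 0.473 and 0.369, and Per3 one of -0.67 and -0.96. Nr1d1 had -0.56 and -0.86, and Nr1d2 -0.33 and -0.56, also near their values without the covariate, while Tef had -0.44 and -0.64. The standard errors of these 5 genes were larger than without it. With the adipocyte list the fold changes of all 5 genes were nearer to 0. That of Dbp was -0.52 for Strain (standard error 0.312) and -0.60 for No Strain (standard error 0.473), that of Tef -0.39 and -0.11, and that of Per3 -0.18 and -0.12. Nr1d2 had -0.06 and -0.08, and Nr1d1 -0.45 and -0.59. Under either covariate 0 of the 10 genes passed in any comparison (edgeR). With the muscle list 0.00537% of all genes passed for Strain relative to TD, 3.46% for No Strain relative to TD and 0.00% for Strain relative to No Strain, and with the adipocyte list 0.285%, 0.226% and 0.00%. At an unadjusted p under 0.05 the muscle list left 0 of 10 for Strain (9.61% of all genes), 5 of 10 for No Strain (Per3, Nr1d1, Nr1d2, Dbp and Tef; 23.0%) and 0 of 10 between the patches (3.67%). The adipocyte list left 1 of 10 for Strain (Tef; 15.1%), 0 of 10 for No Strain (11.7%) and 2 of 10 between the patches (Arntl and Npas2; 7.45%). As the adipocyte and muscle levels differ between the groups, mixture, phase and patch cannot be told apart in this design. The part of the other marker lists in these results was not tested.

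**Figure D4:**
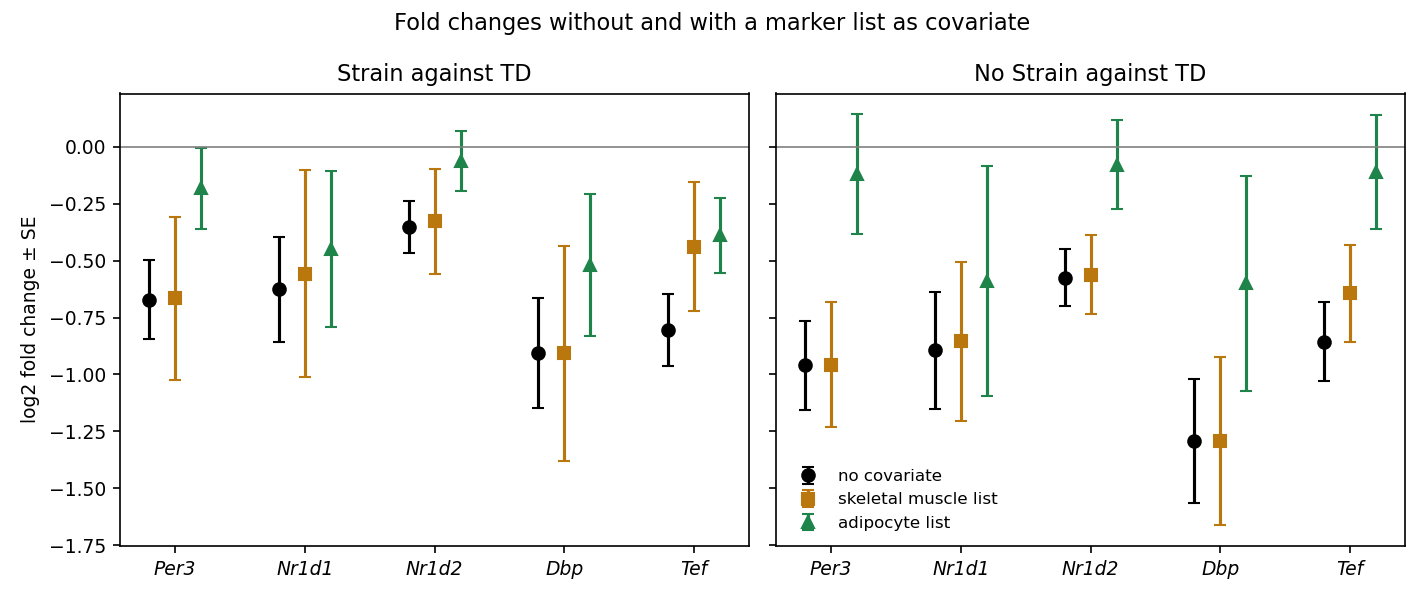
log2 fold changes (vertical axis) of the 5 lower genes against TD, without a covariate (circles), with the skeletal muscle list (squares) and with the adipocyte list (triangles) as covariate; bars are standard errors. With the muscle list Dbp, Per3, Nr1d1 and Nr1d2 stay near their first values and Tef lies closer to 0, and with the adipocyte list all 5 lie closer to 0.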

How the data were processed

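RNA from 12 wounds was enriched for poly(A) and made into libraries with the NEBNext Ultra RNA kit, per the labels' protocols. The authors deposited 1 table of raw counts per gene for each library; the submitters' processing notes name bcl2fastq 2.17, FastQC, cutadapt, STAR, featureCounts, DESeq2 and GRCm38. The roles of these tools, the annotation release, the strand setting and the rule for reads with several matches are not given in the sources used here. Of 54232 identifiers, 54165 matched a GENCODE M21 symbol.

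Counts were tested with edgeR 4.0.16 in R 4.3.3 (TMM scaling, filterByExpr at min.count 10 and min.total.count 15, robust quasi-likelihood fit over all 12 libraries), with Benjamini-Hochberg adjustment over the 18618 genes kept and a threshold of 0.05. A log2 CPM value carries a prior count of 2. Each library was counted as 1 replicate. The 19 pairs of libraries within groups differed by more than counting noise (chi-square per degree of freedom 8.69 to 67.1). Wounds of a single mouse could differ in this way too, so the check cannot tell if the replicates are independent. On simulated counts with 200 genes changed, 84% of changes of 1 on the log2 scale were recovered for Strain against TD (18307 genes), 67% for No Strain against TD (18346 genes) and 69% for Strain against No Strain (18323 genes). Smaller changes were not simulated, and most fold changes of the 10 genes were smaller than 1. Alternatives were other scalings and filters, DESeq2 1.42.0, limma-voom (limma 3.58.1), covariates and leaving out each library.

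Named are the 10 genes and, from 4 related lists, those that passed in any comparison or up to 4 of a list. A gene counted among the other clock genes is not reported here. The members and lists were chosen with earlier results of these data known.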

Additional observations from a re-analysis of the deposited data

Results flagged for a closer look

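Of 32 sets of values screened (a gene or ratio within TD or Strain), 2 held a library far from the others, where chance at 1 in 20 gives 1.6. Both came from TD replicate 3 and both rest on its Dbp level, so they are not separate results. Its log2 CPM of Dbp was 4.69, the nearest other TD library was at 4.26, and the gap was 0.781 of the group's range, against a critical value of 0.71. Its log2 ratio of Arntl to Dbp was 0.17, with the nearest TD library at 0.75 and a gap of 0.862 of the range. Without TD replicate 3 the log2 fold change of Dbp for Strain against TD was -0.80 (edgeR adjusted p = 0.0728).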

How the results depend on the processing

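Each of the 30 fold changes was recomputed under 23 alternatives. The 8 that passed kept their direction in all 184 recomputed values and lost the call in 39. For Strain against TD the count of clock genes called was 1 with the title letter as covariate and 0 with the skeletal muscle or adipocyte list. It ran from 1 to 3 when 1 library was left out, with 1 without TD replicate 1 or 3 or Strain replicate 4. For No Strain against TD it was 0 with either list and ran from 3 to 5, with 3 without No Strain replicate 3. Without the filter on low counts Dbp was lost for Strain (edgeR adjusted p = 0.0621) and Nr1d1 for No Strain (edgeR adjusted p = 0.0991). DESeq2 added Nr1d2 for Strain (DESeq2 adjusted p = 0.0345).

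The reversed values were all of fold changes that had not passed. Npas2 for No Strain against TD was -0.0376 with library totals alone, -0.0423 with limma-voom, -0.0684 with the title letter and -0.46 with the adipocyte list. Arntl was 0.0016 for No Strain against TD without the filter. With the muscle list Per2 was 0.59, 0.30 and 0.29 for Strain against TD, No Strain against TD and Strain against No Strain. With the adipocyte list Arntl was -0.0255 and Npas2 -0.0922 for Strain against TD. For Strain against No Strain that list gave -0.17 for Per1, -0.0624 for Per3, 0.0025 for Cry1 and -0.28 for Tef, and limma-voom gave -0.0023 for Per1. Leaving out 1 library, No Strain against TD ran from -0.11 to 0.0465 for Arntl, from -0.15 to 0.14 for Npas2 and from -0.54 to 0.0488 for Per2. Strain against No Strain ran from -0.15 to 0.34 for Per1, from -0.41 to 0.19 for Per2 and from -0.11 to 0.17 for Tef. For these reversals the cause was not tested.

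Over all genes, calls for Strain against TD fell from 2349 to 1527 without the filter, 798 with the title letter, 53 with the adipocyte list and 1 with the muscle list, and ran from 882 to 2458 when 1 library was left out. For No Strain against TD, 3305 calls became 2145, 42 and 645 with the same 3 covariates and 1505 to 3415 without 1 library. Library totals alone gave 1257 higher and 2046 lower genes there, against 1741 and 1564 with TMM. DESeq2 called 29 genes for Strain against No Strain, where edgeR called 0 and had 1045 at an unadjusted p under 0.05. The ratios of opposite-phase genes were recomputed without each library, a check chosen after seeing the data, and none reversed. No paired analysis was possible because the labels give no replicate number that 2 groups share.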
